A study of Mus musculus with 6 samples.

Results

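The genes described here encode the protein-folding machinery of the endoplasmic reticulum (ER) and the unfolded protein response that adjusts it. They are 32 of the 55341 gene symbols in the count tables, chosen by name, and all 32 were found and tested. RNA was compared between 3 cultures of cerebellar granule neurons (CGNs) given DMSO, the vehicle, and 3 given GSK-126, an inhibitor of the H3K27 methyltransferase EZH2, each added once at day in vitro 3 (DIV3), with RNA taken at DIV5. The cells of both groups came from cerebella of CD1-IGS mice of both sexes at P6 to P8, pooled by litter, were enriched on a Percoll gradient as granule neuron precursors and were given cytosine arabinoside at DIV2 against dividing non-neuronal cells. No animal carried an engineered allele in this experiment, and the sources used here do not name the dose of GSK-126 added at DIV3. GEO's labels give the tissue as cerebellum and the titles name CGNs.

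Proteins that enter the ER are folded by Hsp70 and Hsp90 class chaperones, lectin chaperones and disulfide isomerases, and those that fail are returned to the cytosol for ER-associated degradation (ERAD). When unfolded protein builds up, the membrane sensors IRE1 (Ern1), ATF6 and PERK are activated, and the spliced form of XBP1 and the cleaved form of ATF6 switch on chaperone and ERAD genes. Neurons use the pathway to match folding capacity to the synthesis of receptors and channels. The activation steps are splicing of Xbp1 and cleavage or phosphorylation of proteins, which counts per gene do not show.

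Many chaperone genes carry an ER stress response element (ERSE) near their start, the motif through which ATF6 and XBP1 act with NF-Y. The motif was defined on promoters of such genes, so its presence here is background and no finding. RefSeq promoters (GRCm38.p6, from 250 bases before to 50 bases after the start) were matched for 27 members, the others being Hyou1, Manf, Atf6, Derl1 and Sec61a1. The searched letters were CCAAT and CCACG with 9 free bases between them for ERSE, ATTGG and CCACG with 1 free base between them for ERSE-II, and TGACGTGG for the XBP1 element called UPRE, on both strands. ERSE and ERSE-II both end in CCACG, and no member held both. ERSE was found in 9 of the 27 members, and in 0.119% of 32851 windows or 0.137% of 27025 genes overall. ERSE-II was found in 2 members (0.0365% of windows) and the UPRE letters in 0 (0.676% of windows). The sites of 7 members are shown, 4 with an unadjusted p under 0.05 in the comparison (Hspa5, Pdia6, Calr and Creld2) and 3 whose log2 fold change was below 0 and not called (Syvn1, Derl3 and Herpud1), on the gene's strand with the fixed bases of the motif in capitals and 5 flanking bases on either side.
Hspa5 ERSE, chr2:34772020-34772048, plus strand: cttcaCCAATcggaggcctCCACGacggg
Pdia6 ERSE, chr12:17266486-17266514, plus strand: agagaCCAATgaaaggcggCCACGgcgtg
Calr ERSE, chr8:84847070-84847098, minus strand: caacgCGTGGtcgaccctcATTGGcccat
Creld2 ERSE, chr15:88819515-88819543, plus strand: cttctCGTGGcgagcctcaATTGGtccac
Syvn1 ERSE, chr19:6046527-6046555, plus strand: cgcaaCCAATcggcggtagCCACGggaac
Derl3 ERSE, chr10:75893237-75893265, plus strand: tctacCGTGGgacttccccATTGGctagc
Herpud1 ERSE-II, chr8:94386372-94386392, plus strand: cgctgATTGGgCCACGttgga
In Calr, Creld2 and Derl3 the motif lay on the opposite strand and is seen as its reverse complement. Counted to the first motif base in the direction of the gene, the site lay 65 bases before the RefSeq start in Hspa5, 98 in Pdia6 and 162 in Calr. The gene coordinates given further below are from GENCODE M21, in which Hspa5 begins at 34771970, ahead of its site, so that the distance holds for the RefSeq start only.

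The libraries held between 7407189 and 13092763 counts on genes, and rows that name no gene took from 58.7% to 60.7% of each library's listed reads. Libraries with the same replicate number resembled each other, and the fits pair them by that number. Replicate 2 of both groups stood apart in cell type markers. The summed CPM (read counts brought to a common library size with TMM factors) of 12 granule neuron markers was 7065 and 5588 in replicate 2 with DMSO and GSK-126 and between 3591 and 5203 elsewhere, and that of 7 astroglial markers was 2334 and 2215 against 3969 to 7562. Markers of each cell type list were detected, and no marker was at 0 in every library. With GSK-126 the granule neuron sum was lower in all 3 pairs (ratios of 0.804, 0.791 and 0.792) and 6 of 12 markers were called lower and 1 higher. The sum of 9 fibroblast, mural and endothelial markers ranged from 7479 to 10030 CPM with DMSO and from 8560 to 10880 CPM with GSK-126 and was higher in all 3 pairs (1.24, 1.06 and 1.08), with 3 of the 8 tested called higher (Acta2, Pdgfrb and Col1a2). The 6 microglial markers were also higher in sum in all 3 pairs (1.23, 1.40 and 1.18), with C1qa and C1qb called. Of the other lists, dividing progenitor markers had 0 of the 4 tested called, astroglial 1 of 7 higher, oligodendrocyte lineage 1 of 6 higher, and interneuron and Purkinje markers 3 of 7 lower. In bulk RNA, fewer cells of a type and less RNA per cell cannot be told apart, and the part of these shifts in the values below was not tested.

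GSK-126 was accompanied by a rise of 2 ER genes, Sdf2l1 by 1.59-fold and Pdia6 by 1.25-fold, and by small values that were mostly above 0 for the rest. Of the 32 members, 2 were called higher (6.25%, where 3.35% of the 16729 genes tested were called higher and 5.09% lower) and 0 lower in edgeR's quasi-likelihood test with the replicate number as a block, at a Benjamini-Hochberg adjusted p under 0.05. At an unadjusted p under 0.05, 8 members were higher (25%, against 9.43% of all genes) and 0 lower (against 12.1%), and DESeq2 with the block called 3 higher and 0 lower (background 3.28% and 5.52%). The log2 fold change was above 0 for 27 members (84.4%), where it was so for 49.1% of all genes, and 12 members were higher in all 3 pairs (37.5%, against 19.5%) and 1 lower in all 3 (3.12%, against 22.8%). The median log2 fold change of the members was 0.11, with quartiles of 0.046 and 0.17, beside a median of -0.0056 over all genes. By pair, the members' median was 0.14, 0.067 and 0.13 in pairs 1, 2 and 3. These counts describe a list that was chosen with earlier results of these data known, and they were not tested. Both calls depended on the pairing. Without the block, 0 of 32 members and 0 of all genes passed in edgeR (at an unadjusted p under 0.05, 1 member was higher and 0 were lower, where 1.77% and 2.21% of all genes were), and DESeq2 without it called 0 members (background 0.139% higher and 0.0146% lower).

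**Figure D1:**
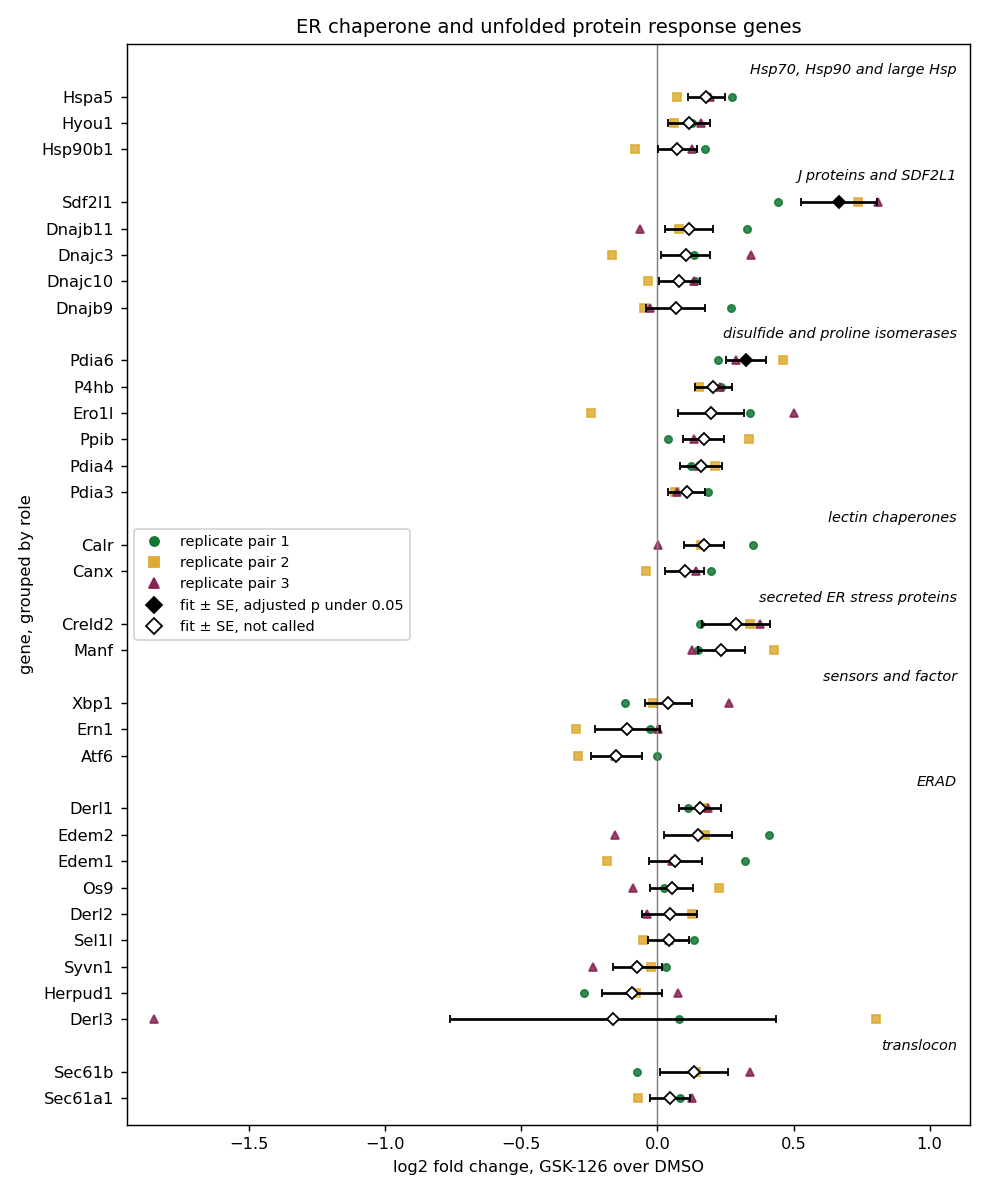
Log2 fold change of GSK-126 over DMSO for each of the 32 genes, grouped by role. Coloured symbols are the 3 replicate pairs, diamonds the fit with its standard error, filled where called. Sdf2l1 and Pdia6 are the filled points, at 0.67 and 0.32, and Derl3, near the detection limit, has the widest error.

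In DMSO cultures the levels spanned a wide range per exon length. Calreticulin (Calr) was at 246 ± 28.9 CPM per kilobase of exon (SD, n = 3), the top of the list and apart from the next gene in every library. P4hb, Pdia3 and Hspa5 followed at 151, 150.2 and 145, not separable beyond their spread, and then Canx and Hsp90b1 at 129.9 and 126.3, also not separable from each other. These 6 abundant folding factors lay above all others, with a gap to Os9 at 61.6 ± 8.20. From Os9 down to Syvn1 at 16.1 the levels fell in small steps, and the gap between neighbours exceeded the larger of their SDs only between Dnajb11 and Manf. The sensors were low per exon length, with Atf6 at 7.34 ± 0.684 and Ern1 at 4.27 ± 0.556, while Xbp1 stood at 31.7 ± 3.38. The lengths take in every annotated exon of a gene, 9231 bp for Atf6 and 8173 bp for Ern1, and the order depends on them. In CPM alone, the DMSO means were 67.7 for Atf6 and 34.9 for Ern1, beside 42.5 for Herpud1 and 17.4 for Sdf2l1. Derl3 was lowest at 0.573 ± 0.148. With GSK-126 the first 2 and the last 4 places were held by the same genes, Sdf2l1 moved from place 25 to 19 and Pdia6 from 9 to 7.

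**Figure D2:**
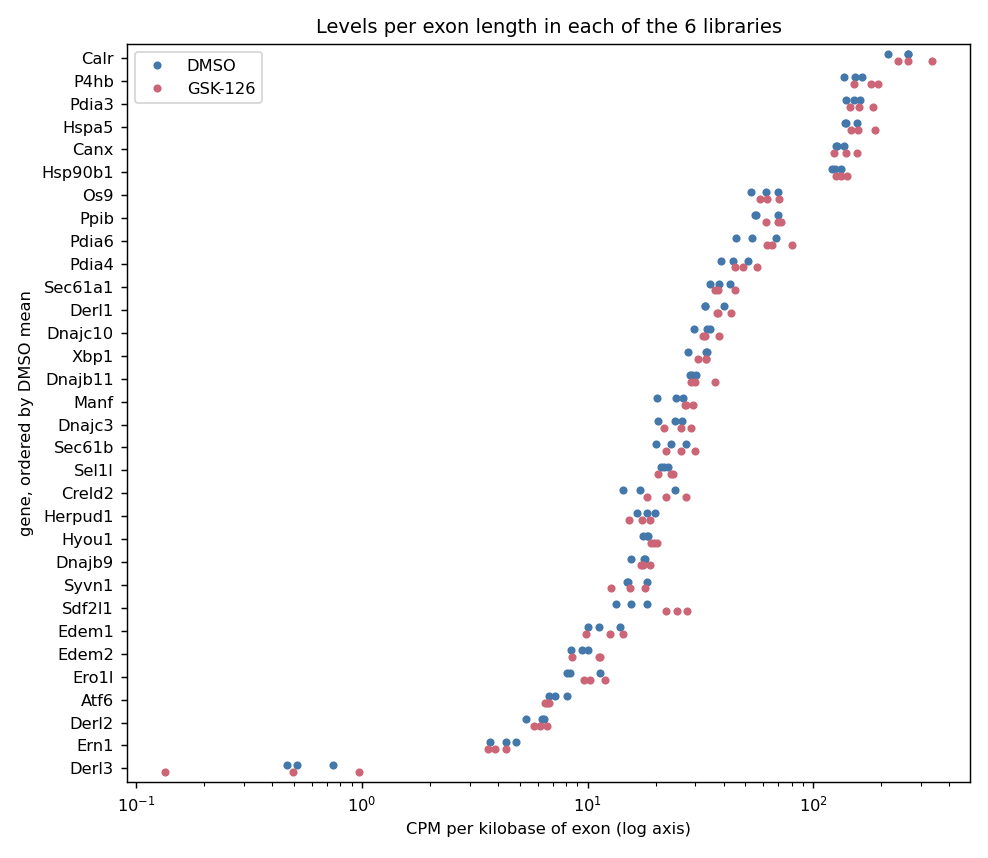
CPM per kilobase of exon (log axis) of each of the 32 genes in the 3 DMSO and 3 GSK-126 libraries, ordered by the DMSO mean. The libraries of a gene lie close together next to the range between genes, and the groups are most clearly apart at Sdf2l1.

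Among the Hsp70 and Hsp90 class chaperones, none passed the test. Hspa5 (ENSMUSG00000026864.13, chromosome 2, 34771970 to 34777547, plus strand, GRCm38) encodes BiP, the ER Hsp70 that also holds the sensors inactive, and had 657, 593 and 584 CPM in the DMSO libraries and 795, 623 and 668 CPM in their GSK-126 partners. The GSK-126 library was the higher one in each pair (values are in the order of replicates 1, 2 and 3 throughout), but the groups overlapped. The means were 611 ± 39.9 CPM in DMSO cultures against 695 ± 89.2 CPM in GSK-126 cultures (n = 3 and SD for both), and the log2 fold change was 0.18 (SE 0.069, edgeR, adjusted p = 0.126), with a 95% interval of 1.03 to 1.25-fold. Hyou1, which exchanges nucleotides on BiP, was at 131 ± 3.24 CPM in DMSO cultures against 142 ± 4.12 CPM in GSK-126 cultures (n = 3 and SD for both) and was one of 3 members whose libraries did not overlap between groups in the higher direction, with Sdf2l1 and Manf (4.72% of all genes did so). Its log2 fold change was 0.12 (SE 0.076, edgeR, adjusted p = 0.404). Hsp90b1, the ER Hsp90, was at 0.074 on the log2 scale with pair values of 0.18, -0.083 and 0.13, and 415 bp of its exons overlap a gene on the opposite strand.

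Of the J proteins and their partner, Sdf2l1 alone was called, and all 5 log2 fold changes were above 0 (49.1% of all genes). Sdf2l1 (ENSMUSG00000022769.9, chromosome 16, 17130138 to 17132383, minus strand, GRCm38) encodes an ER protein that binds the J protein DNAJB11 in the BiP cycle. It had 20.2, 14.7 and 17.3 CPM in the DMSO libraries and 27.5, 24.7 and 30.5 CPM in their GSK-126 partners. Every GSK-126 library was above every DMSO library, and the pair differences were 0.44, 0.74 and 0.81 on the log2 scale. The means were 17.4 ± 2.73 CPM in DMSO cultures against 27.5 ± 2.90 CPM in GSK-126 cultures (n = 3 and SD for both), with a log2 fold change of 0.67 (SE 0.14, edgeR, adjusted p = 0.00399) and a 95% interval of 1.30 to 1.94-fold. The call was kept with each pair left out (edgeR, adjusted p between 0.00114 and 0.0339). It was lost without the block, where the log2 fold change was 0.66 (edgeR, unadjusted p = 0.00595, adjusted p = 0.953). Its exons overlap no other annotated gene. Dnajb11 (ERdj3), the partner itself, was at 0.12 on the log2 scale. Dnajc3 (p58IPK), Dnajc10 (an ER disulfide reductase) and Dnajb9 (a repressor of IRE1) were at 0.10, 0.079 and 0.066, all uncalled and each with at least 1 pair below 0.

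All 6 genes for disulfide and proline isomerization had log2 fold changes above 0 (49.1% of all genes). Of the 6, 1 was called higher (3.35% of all genes) and 5 were higher in all 3 pairs (19.5%). The grouping was made by hand, and these counts were not tested. Pdia6 (ENSMUSG00000020571.12, chromosome 12, 17266545 to 17284770, plus strand, GRCm38), a protein disulfide isomerase that also limits IRE1 signaling, had 257, 170.1 and 201 CPM in the DMSO libraries and 299.8, 234 and 246 CPM in their GSK-126 partners. Replicate 1 was highest in both groups and the groups overlapped, while within pairs GSK-126 was higher by 0.22, 0.46 and 0.29 on the log2 scale. The means were 209 ± 43.9 CPM in DMSO cultures against 260.0 ± 34.9 CPM in GSK-126 cultures (n = 3 and SD for both), and the log2 fold change was 0.32 (SE 0.074, edgeR, adjusted p = 0.00791), with a 95% interval of 1.12 to 1.39-fold. The call of Pdia6 was kept with each pair left out, narrowly without pair 2 (edgeR, adjusted p = 0.0494). It was lost without the block (log2 fold change 0.31, edgeR, unadjusted p = 0.123, adjusted p = 0.953). Its exons share 50 bp with Atp6v1c2 on the opposite strand.

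P4hb, the founding disulfide isomerase, had 469, 391 and 437 CPM in the DMSO libraries and 551, 435 and 513 CPM in their GSK-126 partners. Its pairs differed by similar amounts, 0.23, 0.15 and 0.23, and its log2 fold change of 0.21 (SE 0.068, edgeR, adjusted p = 0.0696) did not pass. DESeq2 with the block gave P4hb an adjusted p of 0.0276, and over the other settings with the block its adjusted p ranged from 0.0233 to 0.248. Pdia4, a large disulfide isomerase, had 123, 93.2 and 106 CPM in the DMSO libraries and 134, 108 and 117 CPM in their GSK-126 partners, with a log2 fold change of 0.16 (SE 0.078, edgeR, adjusted p = 0.239). Ppib, the proline isomerase cyclophilin B, had 231, 183 and 185 CPM in the DMSO libraries and 237, 231 and 203 CPM in their GSK-126 partners, with a log2 fold change of 0.17 (SE 0.077, edgeR, adjusted p = 0.2). The libraries of Pdia4 and of Ppib overlapped between the groups although each pair was higher, and 825 bp of Ppib overlap Snx22 on the opposite strand. Pdia3, which works with the lectin chaperones, was at 0.11 on the log2 scale. Ero1l, the oxidase that recharges disulfide isomerases, was the member of this group whose pairs disagreed, at 0.34, -0.24 and 0.50. Its log2 fold change was 0.20 (SE 0.12, edgeR, adjusted p = 0.374) over all pairs and 0.43 without pair 2 (edgeR, adjusted p = 0.0457), and its adjusted p was as high as 0.905 without pair 3.

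**Figure D3:**
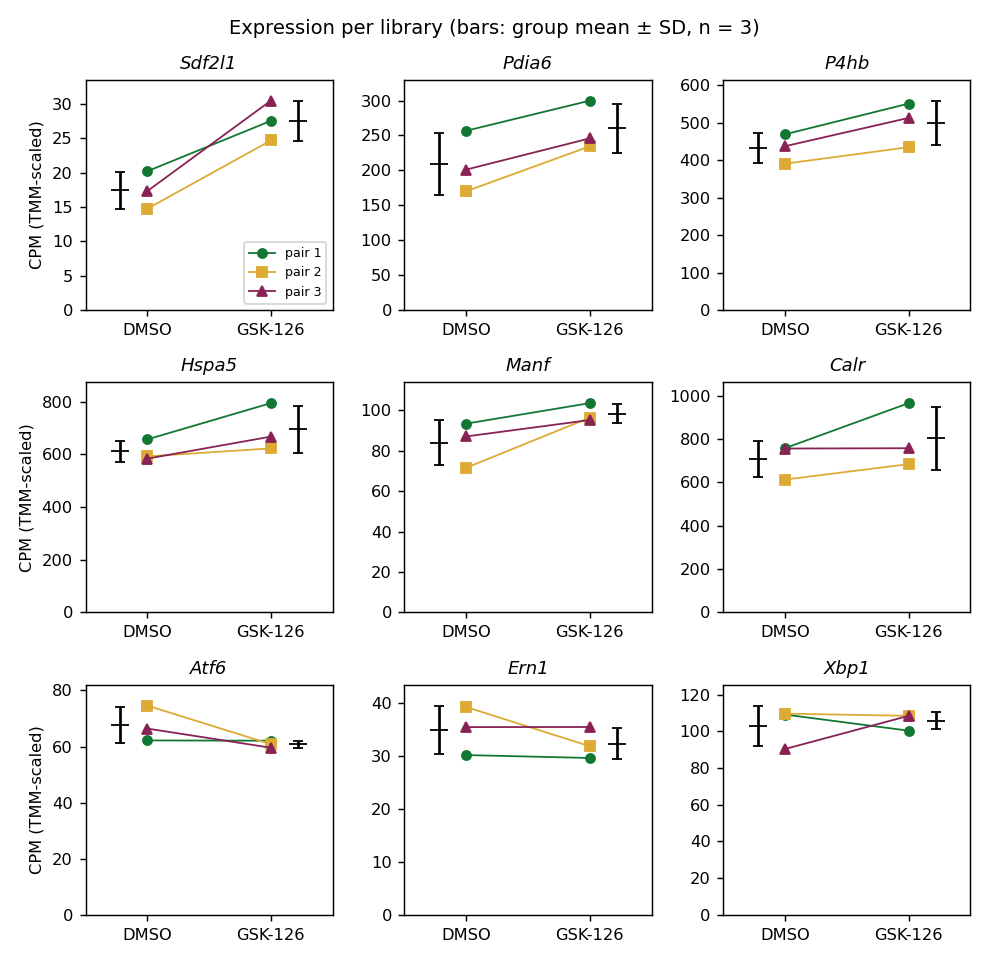
CPM of 9 genes in each library, joined within replicate pairs, with group means and SDs at the sides (n = 3 each, axes from 0). The lines of Sdf2l1, Pdia6, P4hb, Hspa5 and Manf go up in all 3 pairs, as do those of Calr, nearly level in pair 3. Those of Atf6, Ern1 and Xbp1 go down or stay level in at least 2 of 3.

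The lectin chaperones bind glycoproteins through their trimmed sugars. Calr (ENSMUSG00000003814.8, chromosome 8, 84841850 to 84846934, minus strand) had 759, 613 and 757 CPM in the DMSO libraries and 966, 685 and 758 CPM in their GSK-126 partners, and the libraries of pair 3 were level. Its log2 fold change was 0.17 (SE 0.074, edgeR, adjusted p = 0.176). Canx, the membrane-bound counterpart, had 641, 596 and 591 CPM in the DMSO libraries and 735, 579.9 and 652 CPM in their GSK-126 partners, with a log2 fold change of 0.10 (SE 0.07, edgeR, adjusted p = 0.449) and pair 2 below 0. Of the secreted ER stress proteins, Manf, a BiP-binding neurotrophic factor, had 93.3, 71.5 and 87.0 CPM in the DMSO libraries and 103, 96.3 and 95.1 CPM in their GSK-126 partners. Every GSK-126 library of Manf was above every DMSO library, by a log2 fold change of 0.23 (SE 0.087, edgeR, adjusted p = 0.112), and 312 bp of its exons overlap genes on the opposite strand. Creld2, an ER stress-inducible disulfide isomerase-like protein, had 33.3, 19.7 and 23.3 CPM in the DMSO libraries and 37.2, 24.99 and 30.3 CPM in their GSK-126 partners. It was higher in all 3 pairs with overlapping groups, with a log2 fold change of 0.29 (SE 0.12, edgeR, adjusted p = 0.175).

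None of the sensors or their transcription factor passed the test. Atf6 (ENSMUSG00000026663.6, chromosome 1, 170704674 to 170867771, minus strand), a membrane-bound transcription factor, had 62.2, 74.6 and 66.4 CPM in the DMSO libraries and 62.1, 60.8 and 59.6 CPM in their GSK-126 partners. The GSK-126 libraries all lay below the DMSO libraries, narrowly in pair 1, and Atf6 was the only member with no overlap in the lower direction (4.72% of all genes). Its log2 fold change was -0.15 (SE 0.094, edgeR, adjusted p = 0.379), with a 95% interval of 0.786 to 1.03-fold. Ern1 (ENSMUSG00000020715.9, chromosome 11, 106394650 to 106487852, minus strand), the kinase and nuclease IRE1, had 30.1, 39.2 and 35.4 CPM in the DMSO libraries and 29.6, 31.8 and 35.4 CPM in their GSK-126 partners, overlapping groups, and a log2 fold change of -0.11 (SE 0.12, edgeR, adjusted p = 0.649). Xbp1 (ENSMUSG00000020484.18, chromosome 11, 5520659 to 5525893, plus strand), whose mRNA IRE1 splices, had 109, 109.6 and 90.4 CPM in the DMSO libraries and 100.4, 108 and 108 CPM in their GSK-126 partners. It was lower in pairs 1 and 2 and higher in pair 3, for a log2 fold change of 0.04 (SE 0.087, edgeR, adjusted p = 0.844).

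Of the 9 ERAD genes, 0 were called in either direction (edgeR, with 0 at an unadjusted p under 0.05 and 0 called by DESeq2 with the block). For all genes, edgeR with the block called 3.35% higher and 5.09% lower. Of the 9, 6 were above 0, against 49.1% of all genes. Derl1, a channel component of retrotranslocation, was the only one higher in all 3 pairs, with 133, 111 and 110.3 CPM in the DMSO libraries and 144, 125 and 125 CPM in their GSK-126 partners. Its groups overlapped, and its log2 fold change was 0.16 (SE 0.076, edgeR, adjusted p = 0.246). The lectin Os9 and the mannosidase-like Edem1 and Edem2 were at 0.053, 0.066 and 0.15 on the log2 scale. The ubiquitin ligase Syvn1 (HRD1) and its partner Sel1l were at -0.074 and 0.041, and Derl2 was at 0.045. Herpud1, a small membrane scaffold of the ligase that is strongly inducible by ER stress in many cells, was at 42.5 ± 4.01 CPM in DMSO cultures against 40.0 ± 4.26 CPM in GSK-126 cultures (n = 3 and SD for both), with pair values of -0.27, -0.079 and 0.075. Derl3 had between 2 and 18 counts per library, so that its 95% interval ran from 0.376 to 2.13-fold and no change could be resolved at this depth. In the translocon, the pore subunit Sec61a1 and the small subunit Sec61b were at 0.047 and 0.13, neither called.

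In the fit with the block, the standard errors of the members apart from Derl3 lay between 0.068 and 0.14 on the log2 scale. In that fit the 95% intervals of 30 of the 32 members ended under 1.5-fold, Sdf2l1 and Derl3 being the others. For the 29 members other than Sdf2l1, Pdia6 and Derl3, its highest upper limit was 1.46-fold, for Creld2. These limits rest on the pairing. Without the block the standard errors were larger, 0.24 against 0.12 for Creld2 and 0.18 against 0.074 for Pdia6, and no intervals were taken. Members with an ERSE had a median log2 fold change of 0.10 (7 of 9 above 0, 4 of 9 higher at an unadjusted p under 0.05, 1 called), and those with a promoter match but no ERSE had one of 0.093 (16 of 18 above 0, 3 of 18 higher at an unadjusted p under 0.05, 1 called). Over all genes, 49.1% were above 0, 9.43% were higher at an unadjusted p under 0.05 and 3.35% were called higher. The set with no ERSE holds Dnajb11 and Herpud1, which carry an ERSE-II, so it is not a set without ER stress motifs. The difference between these sets was not tested. Sdf2l1 was among those with no ERSE, which says only that these letters were not in its window. Syvn1 and Derl3, which hold the motif shown above, were at -0.074 and -0.16.

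Other genes of the pathway were taken from hand-written lists. In the PERK and ATF4 arm, which halts translation and induces amino acid and stress genes, 3 of 11 genes were called higher and 0 lower, with a median log2 fold change of 0.18. DESeq2 with the block called 1 of the 11 higher, Atf4, and 0 lower. Atf4 itself was at 129.5 ± 11.5 CPM in DMSO cultures against 168 ± 19.0 CPM in GSK-126 cultures (n = 3 and SD for both), a log2 fold change of 0.37 (SE 0.077, edgeR, adjusted p = 0.00338). Ddit3 (CHOP), an ATF4-induced factor, went from 21.0 ± 2.17 to 30.0 ± 2.86 CPM (mean ± SD, n = 3), 0.52 (SE 0.13, edgeR, adjusted p = 0.0138) on the log2 scale, and Trib3, a pseudokinase induced by both, rose by 0.64 (SE 0.16, edgeR, adjusted p = 0.0177). For all 3 genes the GSK-126 libraries lay above the DMSO libraries without overlap, and the pair values of Ddit3 were 0.51, 0.54 and 0.49. Of the 11 genes of the list, 4 did not overlap in the higher direction and 1 in the lower, where 4.72% of all genes did so each way. By pair, 8 of the 11 were higher in all 3 and 1 was lower in all 3 (19.5% and 22.8% of all genes). Eif2ak3, which encodes PERK, was at 0.065 and was not called.

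Of 9 tested genes for the proteases and partners of ATF6 and XBP1, 0 were called higher and 1 lower, Nfyc, a subunit of NF-Y, at -0.34 (SE 0.10, edgeR, adjusted p = 0.039) on the log2 scale, and the list's median was -0.069. Nfya, and Hspa4l of the heat shock list below, were listed at 0 in all 6 libraries and were not tested. A listed 0 does not show that a gene is silent, and its cause was not tested. The other ER folding factors had 0 of 19 called in either direction (edgeR, with 4 higher at an unadjusted p under 0.05 and 0 lower, and 0 by DESeq2 with the block) and a median of 0.14. The other disulfide and redox enzymes had a median of 0.079 with 1 of 12 called higher, Qsox1, an oxidase of the secretory pathway, at 0.27 (SE 0.081, edgeR, adjusted p = 0.0469), and 1 lower, the membrane thioredoxin Tmx4, at -0.25 (SE 0.076, edgeR, adjusted p = 0.0411). The N-glycan and calnexin cycle list (0 of 14 called, at an unadjusted p under 0.05, 4 higher and 1 lower, 0 by DESeq2) and the other translocon and signal peptidase genes (0 of 16 called, at an unadjusted p under 0.05, 2 higher and 0 lower, 0 by DESeq2) had medians of 0.082 and 0.072. The other ERAD factors were at a median of -0.028 with 0 of 20 called (at an unadjusted p under 0.05, 1 higher and 2 lower, 0 by DESeq2). The heat shock list, which serves as a comparison outside the ER, had a median of -0.014, and at an unadjusted p under 0.05, 2 of 13 genes were higher and 3 lower. It had 1 call, Hspe1, which encodes a mitochondrial co-chaperonin, at 0.36 (SE 0.092, edgeR, adjusted p = 0.0168). Hspa8 and Hsp90ab1, abundant cytosolic chaperones, were at -0.049 and -0.09. Of the 7 calls in these lists, DESeq2 with the block made Atf4 and Hspe1, and without the block edgeR made none of them (adjusted p = 0.953 for each).

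**Figure D4:**
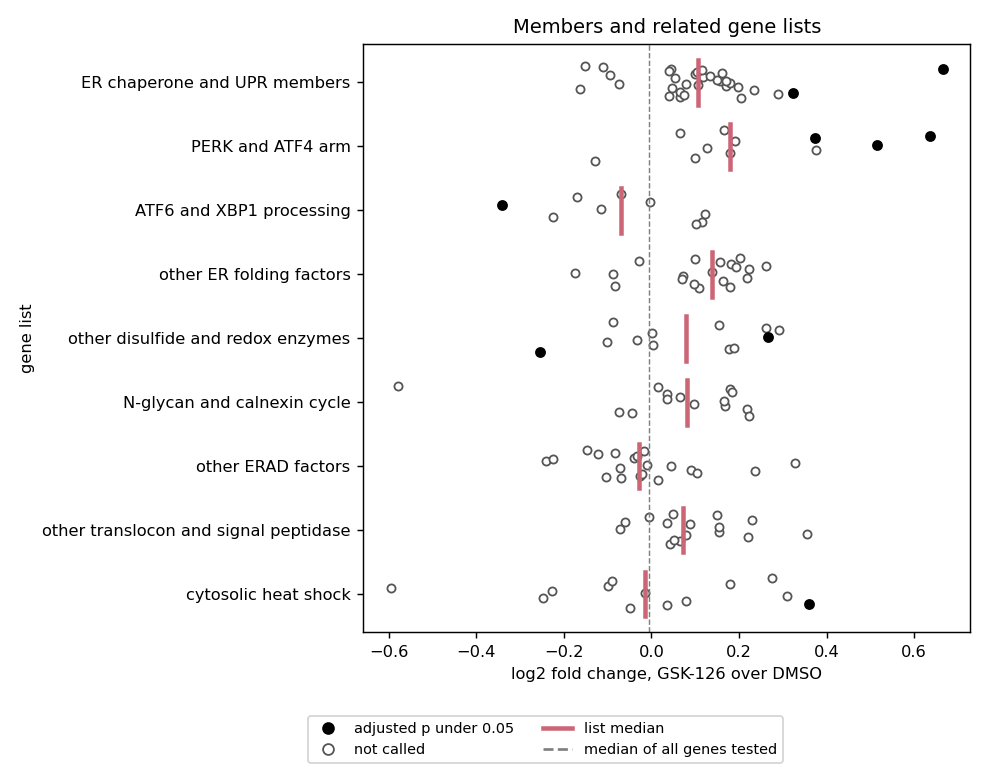
Log2 fold change of GSK-126 over DMSO for each tested gene of the 32 members and of 8 related lists, with filled points for called genes, a bar at the list median and a dashed line at the median of all genes. The members (median 0.11), the PERK and ATF4 arm (0.18) and the other ER folding factors (0.14) sit to the right of the dashed line, and the other ERAD factors (-0.028) and the heat shock list (-0.014) sit near it.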

How the data were processed

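RNA of 3 DMSO and 3 GSK-126 cultures was poly-A enriched and sequenced as paired reads. The submitters' processing notes name Trimmomatic 0.38, STAR 2.7.2b and mm10. The authors deposited raw counts per gene without normalization, made with HTSeq on exons of the Gencode GRCm38.p4 annotation. The strand setting of the counting is not given in the sources used here, so reads of genes that overlap on opposite strands could not be told apart. Symbols were matched to GENCODE M21 for coordinates and exon lengths.

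Rows that name no gene were left out. In R 4.3.3, edgeR 4.0.16 was run with TMM factors, filterByExpr (16729 genes) and a two-sided quasi-likelihood test between the groups, with the replicate number as a block and Benjamini-Hochberg adjustment over all genes. Standard errors are the log2 fold change divided by the root of F. The biological coefficient of variation was 9.74% with the block and 24.0% without it. The fit was tested on simulated data. Alternatives were DESeq2 1.42.0, no block, other scalings and filters, and each pair left out.

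The block follows the replicate numbers of the titles. The paper defines a culture replicate as CGNs of pooled litters and does not say that a number marks a shared preparation. Deviations from the group means correlated across genes at 0.561, 0.634 and 0.487 between libraries of the same number, so the numbers were taken to pair the libraries. Between others the correlations were 0.0064 or less. Deviations within a group sum to 0, so positive values at the same number push the others down. The low values between other libraries are therefore no separate evidence of the pairing. No library was a copy of another (chi-square per degree of freedom of 9.01 or more). Counting error is included in the fits, and no separate intervals from counts are given. The members and lists were chosen with earlier results of these data known. Values in every library are given for members that passed and for 6 fixed genes (Hspa5, Xbp1, Atf6, Ern1, Calr and Canx), and for those of smallest p up to 10.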

Additional observations from a re-analysis of the deposited data

How the results depend on the processing

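The call of 2 members higher and 0 lower rests on the pairing by replicate number. With no replicate block, edgeR called 0 members higher and 0 lower, and DESeq2 with no replicate block called 0 and 0, which changed no direction. With the block, the count was 3 under DESeq2, upper-quartile factors or at least 10 counts in every library (P4hb added), 4 with total counts or no filter (P4hb and Hspa5 added), and 2 with RLE factors or an adjusted p under 0.01. With each pair left out it ranged from 2 to 3, the third being Ero1l without pair 2. In each setting with the block Sdf2l1 and Pdia6 were among the calls. No member was called lower in any of these settings. The members' median log2 fold change was 0.11 in all 6 libraries, between 0.083 and 0.14 with each pair left out, and from 0.056 without GSK-126 replicate 1 up to 0.17 when GSK-126 replicate 2 was dropped, with single libraries left out of the fit without the block, where it was 0.14 without DMSO replicate 1. A single library left out of the block fit removes its pair from the contrast. Of the uncalled members, 8 changed sign when 1 pair was left out, with log2 fold changes that ranged over the 3 such fits as follows: Dnajb9 -0.022 to 0.13, Dnajc3 -0.012 to 0.24, Xbp1 -0.067 to 0.14, Herpud1 -0.17 to 0.011, Edem1 -0.048 to 0.19, Syvn1 -0.11 to 0.0051 and Os9 -0.029 to 0.12. The other was Derl3, at -0.29 without pair 1 and 0.54 without pair 3, and it was not tested without pair 2, where it did not pass the filter on low counts. The cause of these changes was not tested. Depth limits Derl3, and 3 pairs limit what a test of smaller changes can call.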

Other observations

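The ERSE letters were also found in the promoters of genes that are not members. Of 37 genes with a match, 9 were members and 10 others were tested. Of these 10, 0 were called in either direction (edgeR with the block, and 0 without it). At an unadjusted p under 0.05, 0 were higher (9.43% of all genes) and 1 was lower (12.1%). Above 0 were 6 of 10 (49.1% of all genes), with a median log2 fold change of 0.048. The lower one was Pan2, a subunit of a poly(A) nuclease, at -0.33 (edgeR, adjusted p = 0.076), and Alg12, a mannosyltransferase of N-glycan assembly in the ER, was at 0.056. These genes were picked for naming after their values were seen.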
